A study of Drosophila melanogaster with 4 samples.

Results

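The regions described here are the JHDM1-enriched clusters on the X chromosome of Drosophila melanogaster that end at or below 20000000 bp, which leaves out the stretch of the assembled arm next to the centromere. They were taken from 3 deposited lists of regions of significant enrichment, by chromosome and end coordinate alone. Replicate 1 held 1314 such clusters of 7836 in all, or 16.8%. Replicate 2 held 998 of 7074, or 14.1%, and the list of the replicate set, called the whole-series list below, held 1341 of 8005. The chromatin came from nuclei of heads of wild-type Oregon-R flies at a stage given as mixed adult, and each of the 2 ChIP libraries had an input library of its own as background. All libraries share strain, genotype and tissue, and the labels give neither sex nor whether the ChIP libraries had separate flies as their source, so their spread may be a technical one. The question was where JHDM1 sits in head chromatin, and, for the X, which clusters came back in the other immunoprecipitation.

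ChIP-seq precipitates crosslinked DNA with an antibody, here against JHDM1, and sequences it. JHDM1, in the fly also called Kdm2, is a histone demethylase of the JmjC family that also acts with Polycomb group RING proteins in ubiquitination of histone H2A. The JHDM1 proteins are known chiefly for removing the lower methylation states of lysine 36 of histone H3, a residue methylated along transcribed genes. In fly males the X is transcribed at a raised rate through the MSL complex, which acetylates histone H4 and is drawn to trimethylated lysine 36, while in females it is not. This is the setting in which X clusters are of interest, and none of it was measured here.

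Coordinates are those of FlyBase release 5, per the file headers. The annotation given for this work is that of another release, so clusters were not assigned to genes, exons or introns. Read depth is unknown, and the score carried by each cluster is the authors' own value in a unit not given in the sources used here. Scores were therefore compared as percentiles within the list of their replicate, over all arms and scaffolds. Arms 2L, 3L and 3R, each taken whole, served as background. All other arms and the scaffolds were left out of it and enter only the values over all arms and scaffolds. The background arms therefore do not stand for the whole rest of the genome. At the border of the chosen stretch, the last cluster inside in replicate 1 ran from 19955817 to 19957617 with a score of 0.516, and the first outside from 20041106 to 20043300 with a score of 1.37. The X beyond the border held another 93 clusters in replicate 1 and 66 in replicate 2.

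In replicate 1 the X to 20 Mb was covered more densely than any of the 3 background arms, and in replicate 2 less densely. Its replicate 1 clusters took up 4.44 Mb, or 22.2% of the 20 Mb, against 20.1% of 2L, 21.2% of 3L and 21.9% of 3R. In replicate 2 they took up 2.82 Mb, or 14.1%, against 20.5%, 20.2% and 21.7%. The whole X was covered at 21.2% in replicate 1, level with 3L and under 3R, and at 13.4% in replicate 2. The place of the X above all 3 arms in replicate 1 thus depended on the cut at 20 Mb. The ratio of replicate 2 to replicate 1 was thus 0.634 on the X and 0.953 to 1.02 on the 3 background arms. Relative to the background arms together, X coverage was 1.05 fold in replicate 1 and 0.675 fold in replicate 2, a mean of 0.864 ± 0.27 (SD, n = 2). The X to 20 Mb was above the background in one library and below it in the other, so no common direction can be given. The whole X gave 1.00 fold in replicate 1 and 0.645 fold in replicate 2. Against the 20 Mb nearest the telomere of each background arm, the X to 20 Mb gave 1.04 and 0.669 fold. Clusters were also fewer, at 65.7 per Mb of the X in replicate 1 and 49.9 per Mb in replicate 2, while the background arms had 59.1 and 57.7.

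The X clusters also took a different place in the score order of each list. In replicate 1 the median X cluster stood at percentile 58.0, with a score of 1.06, while the medians of 2L, 3L and 3R stood at percentiles 45.6 to 47.3. Weak clusters were scarce on the X in that library. Of its clusters, 7.53% were among the lowest 20% of the list by score, against 23.5% of those on the background arms. In replicate 2 this was close to even, at 17.8% against 21.0%, and the median X cluster stood at percentile 51.2. Among the highest 20% of the list were 21.1% of the X clusters in replicate 1 and 16.0% in replicate 2. In the whole-series list the X again had few weak clusters, with 10.1% among the lowest 20% against 23.5% on the background arms.

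A cluster of replicate 1 was called touching if it had at least 1 bp in common with a cluster of replicate 2. Of the 1314 X clusters, 860 touched and 454 did not. That is a touching share of 65.4% (95% Wilson interval 62.8 to 68.0%, counting error only), against 77.4% over all arms and scaffolds and 82.9% on the background arms together, with 84.5% on 2L, 79.8% on 3L and 84.4% on 3R. In the other direction the X stood above the background, since 92.9% (91.1 to 94.3%) of the 998 X clusters of replicate 2 touched replicate 1, against 86.1% over all arms and scaffolds and 85.2% on the background arms together, with 85.0% on 2L, 85.7% on 3L and 85.0% on 3R. Neither interval on the X reached the shares of the 3 background arms. The comparison is between 2 libraries, and its spread over further libraries is unknown.

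Touching clusters on the X were longer. Their median length in replicate 1 was 3201.5 bp, with quartiles at 2334 and 4954 bp, and that of clusters that did not touch was 1941 bp, with quartiles at 1594.5 and 2355.5 bp. The longest cluster that did not touch measured 7630 bp. The difference of the medians, 1260.5 bp, was close to that on the background arms, 1222.5 bp. In replicate 2 the same difference was 733 bp on the X and 1312 bp on the background arms. The shortest X clusters measured 1302 bp in replicate 1 and 1301 bp in replicate 2.

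A longer interval can meet another one more easily, so length classes were compared one by one. Under 2 kb, 32.0% (27.4 to 37.0%) of 362 X clusters of replicate 1 touched replicate 2, against 47.0 to 54.9% on the 3 background arms. Between 2 and 3 kb it was 65.3% (60.6 to 69.6%) of 426 against 85.5 to 89.9%, and between 3 and 5 kb 83.9% (79.4 to 87.6%) of 305 against 92.9 to 97.5%. From 5 to 10 kb the X stood at 94.3% of 192 and the background arms at 97.9 to 99.2%. All 29 X clusters of 10 kb and over touched, as did all 140 on the background arms. The X was thus lower in each class under 10 kb, and the distance to the background arms was widest from 2 to 3 kb. When the background arms were weighted to the length classes of the X, their share moved from 82.9% to 81.4%, still above the 65.4% of the X. Weighted to length class and score together, it was 76.5%. Neither weighting allows for the number of replicate 2 clusters there were to meet. That number over the replicate 1 number was 0.760 on the X and 0.976 on the background arms. The touching shares are thus tied to the cluster counts and coverage given above, and how far was not tested. In replicate 2 the order was the other way round for short clusters, with 85.3% of 360 X clusters under 2 kb touching replicate 1 against 58.5% on the background arms.

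**Figure D1:**
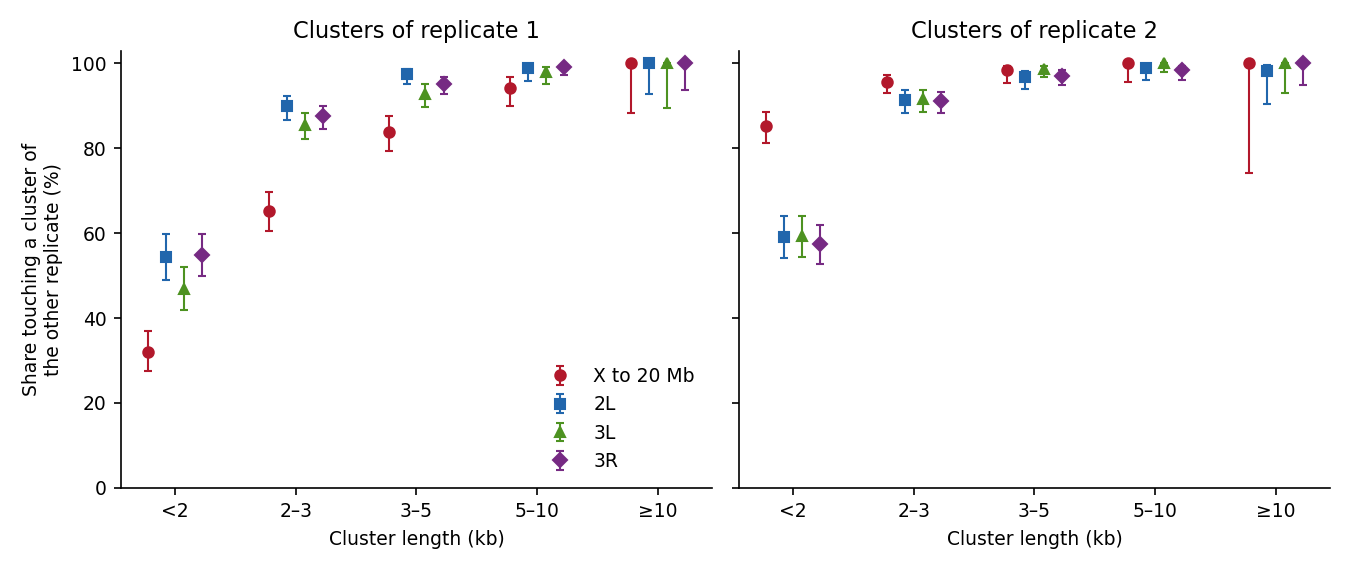
Share of clusters (%) that touch a cluster of the other replicate, by cluster length (kb), for replicate 1 on the left and replicate 2 on the right; points are arms, bars are 95% Wilson intervals. In replicate 1 the X lies under the 3 background arms in each class below 10 kb, with 32.0% under 2 kb, and in replicate 2 it lies above them under 2 kb, with 85.3%.

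The classes also differed in score, and on the X by less than on each background arm. Touching X clusters of replicate 1 had a median score of 1.15 (quartiles 0.906 and 1.47) and the others one of 0.949 (0.782 and 1.13). In percentiles the medians were 65.0 and 48.0, a difference of 17.0 points, against 52.5 and 25.4, or 27.1 points, on the background arms, where single arms gave 26.1 to 28.6 points. An X cluster without a counterpart in replicate 2 was thus typically near the middle of its list by score, while such a cluster on the background arms was well below it. In replicate 2 the 71 X clusters that did not touch stood at percentile 44.5 and the touching ones at 51.7, with 28.0 and 56.2 on the background arms.

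**Figure D2:**
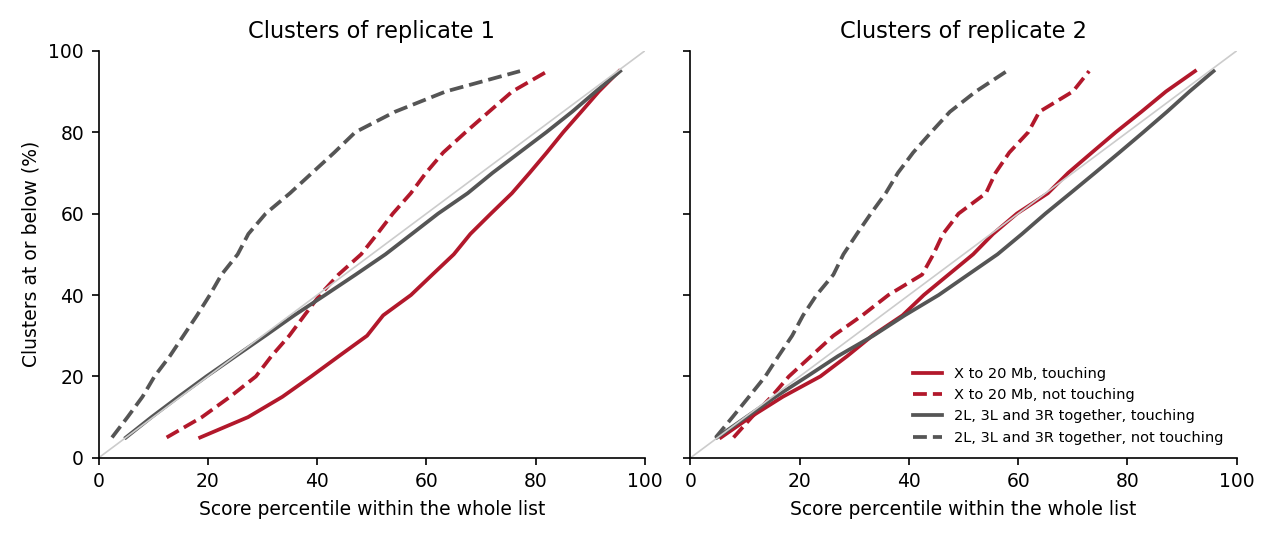
Cumulative share of clusters (%, drawn in steps of 5 from 5 to 95) by score percentile within the whole list, for touching (solid) and not touching (dashed) clusters on the X to 20 Mb and on 2L, 3L and 3R together; the thin grey line is the whole list. In replicate 1 the dashed X curve crosses the middle at percentile 48.0 and the dashed background curve at 25.4.

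On the X, longer clusters had higher scores (Spearman's rho 0.60 across the 1314 X clusters of replicate 1, which share a library and carry no p). The same held on the background arms together, with a rho of 0.60. When both lists were held to clusters at or above their median length, the difference between the classes was 0.562 percentile points in place of 17.0. On the background arms it was 9.69 in place of 27.1. That filter also took short clusters out of replicate 2, so the X classes were redrawn, with 347 touching and 285 not touching. The change therefore cannot be put down to the length of the replicate 1 clusters alone. Within length classes the median scores of touching and not touching X clusters were 1.11 and 1.06 from 2 to 3 kb, and 1.18 and 1.14 from 3 to 5 kb. On the background arms they were 0.974 and 0.834, and 1.13 and 0.930. From 5 to 10 kb the X had the larger difference, with medians of 1.33 and 1.21 against 1.15 and 1.17 on the background arms, but 11 X clusters and 9 background clusters of that length did not touch. Under 2 kb the order turned on the X and on the background alike, with 0.707 for touching and 0.817 for other X clusters. Split at the median score of the list, X clusters of 2 to 3 kb touched at 65.8% (57.7 to 73.0%) below it and 65.0% (59.2 to 70.3%) above it. On the background arms the same split gave 83.1% (80.3 to 85.6%) and 92.6% (90.4 to 94.3%). The intervals overlapped on the X and on 2L, with 88.0% (83.1 to 91.6%) and 91.9% (87.4 to 94.9%), and were apart on 3L and 3R. The upper part of the scores did differ on the X, since the upper quartile at 2 to 3 kb was 1.45 for touching and 1.24 for other clusters. Short clusters with high scores rarely had a counterpart, on the X or on the background arms. Of 71 X clusters under 2 kb with a score above the median, 9 touched, or 12.7% (6.81 to 22.4%), and of 60 on the background arms 2 did.

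**Figure D3:**
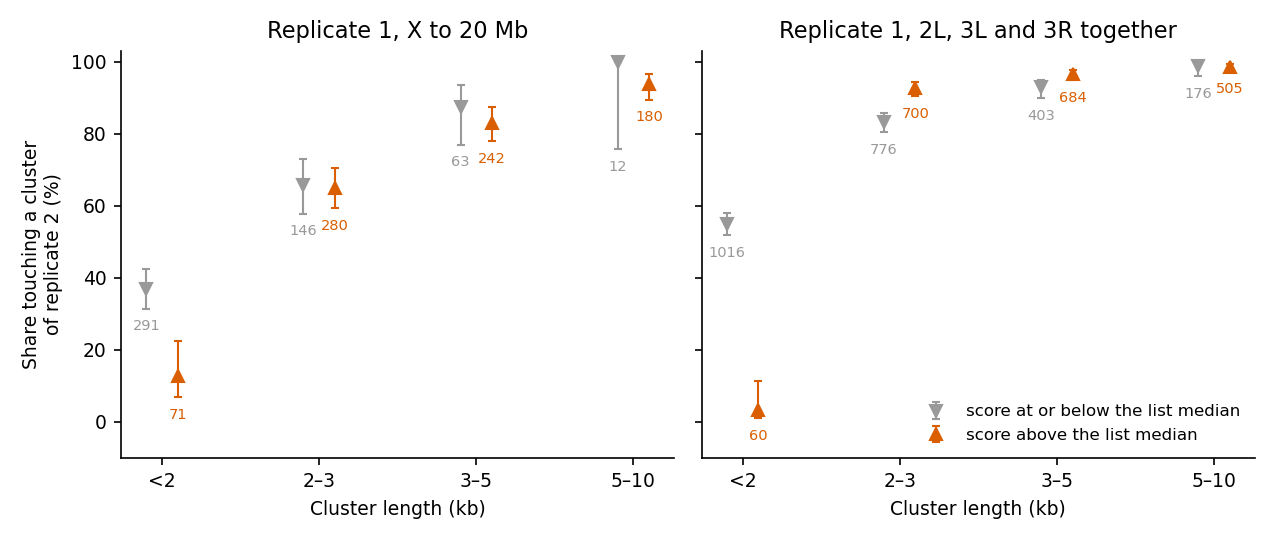
Share of replicate 1 clusters (%) touching replicate 2, by length (kb) and by score below or above the median of the list, on the X to 20 Mb and on 2L, 3L and 3R together; bars are 95% Wilson intervals and small figures are numbers of clusters. From 2 to 3 kb the X points stand at 65.8% and 65.0%, while the background points stand at 83.1% and 92.6%.

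At the very top of the score order nearly every X cluster was shared. Of the 20 highest scores on the X in replicate 1, 19 touched replicate 2, and of the 100 highest, 95 did. These ranks were counted on the X only, so they have no background share and show nothing particular to the X. The highest 20% of the list held 277 X clusters, of which 89.5% (85.4 to 92.6%) touched, against 96.2% on the background arms. In the middle 20% of the list the X stood at 57.9% (52.6 to 63.1%) and the background arms at 84.2%, the widest distance among the 5 score classes. In the lowest 20% the shares were 47.5% and 71.4%.

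Touching clusters also lay closer to their neighbours. The median gap to the nearest cluster of the same list was 1220 bp for touching X clusters of replicate 1 and 2024 bp for the others, a difference of -804.5 bp, against 1505 and 3261.5 bp on the background arms. Of X clusters with a neighbour within 500 bp, 76.6% (71.8 to 80.8%) touched, and of those with none within 10 kb, 56.9% (48.9 to 64.4%). The background arms went from 88.5% to 71.4% over the same classes. The X was lower in each class of spacing, and weighting the background arms to the spacing of the X gave 83.6%. Clusters on the X that did not touch were seldom near misses. The nearest cluster of replicate 2 was a median of 4059 bp away, 84 of the 454 had one within 1 kb, and 131 had none within 10 kb. Those shares, 18.5% and 28.9%, were close to the 17.7% and 28.9% on the background arms.

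Along the arm both classes were mixed. The median midpoint of touching clusters lay at 10.3 Mb and that of the others at 10.1 Mb from the telomeric end of the assembled arm. In stretches of 5 Mb the touching share was 65.8%, 63.5%, 68.1% and 64.6% from the telomeric end on, each within the interval of the others. In single 1 Mb bins it ranged from 51.9% to 76.8% with a median of 66.9%. The median over the 74 bins of the background arms was 83.1%, and 1 of these bins was at or below the X median. All 20 X bins had fewer clusters and less coverage in replicate 2, as did 45 and 42 of the 74 background bins. The ratio of covered shares per X bin ran from 0.434 to 0.833.

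Of the X bins, the highest touching shares were those of 15 to 16 Mb (76.8%, 63 of 82 clusters), 0 to 1 Mb (75.8%, 47 of 62) and 16 to 17 Mb (74.6%, 50 of 67). These were also the 3 bins that kept most of their coverage in replicate 2, with ratios of 0.812, 0.833 and 0.773. The lowest were 18 to 19 Mb (51.9%, 28 of 54), 19 to 20 Mb (55.7%, 44 of 79) and 3 to 4 Mb (56.6%, 30 of 53), with ratios of 0.528, 0.434 and 0.634. Clusters took up 26.4% of the bin from 19 to 20 Mb in replicate 1 and 11.5% of it in replicate 2, the lowest ratio on the X. The order of bins by coverage was less alike between replicates on the X (Spearman's rho 0.75 over 20 bins of the same libraries) than on the background arms (0.95 to 0.98).

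**Figure D4:**
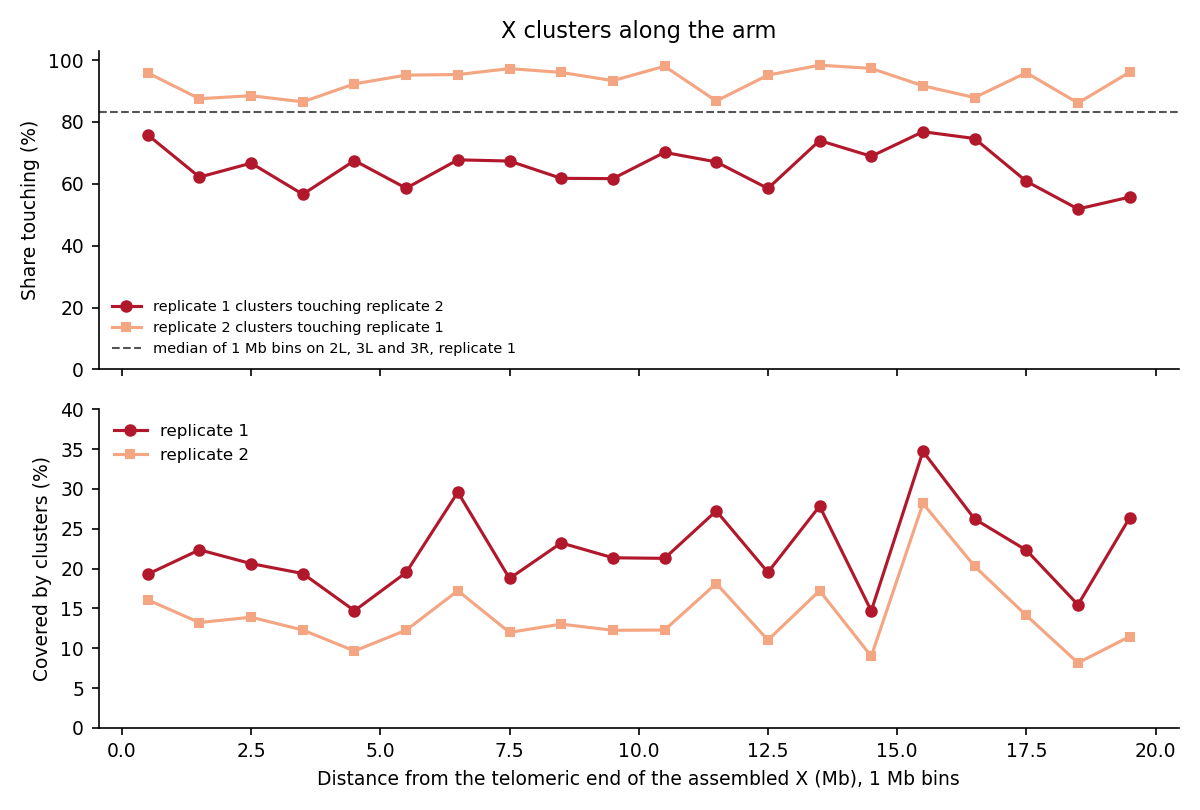
Upper panel, share of X clusters (%) touching the other replicate in 1 Mb bins by distance from the telomeric end of the assembled arm (Mb), with the median of background bins in replicate 1 as a dashed line at 83.1%; lower panel, share of each bin covered by clusters (%) in both replicates. Replicate 1 shares run from 51.9% to 76.8%, all under the dashed line, and coverage in replicate 2 is the lower one in all 20 bins.

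X clusters of replicate 1 that did not touch formed 275 runs of neighbours, of which 164 were a lone cluster, 74 a pair and 37 of 3 or more. Lone clusters made up 114 of the 151 runs on 2L, 171 of the 216 on 3L and 154 of the 199 on 3R, where clusters that did not touch were also fewer. Runs of 3 or more numbered 7, 16 and 14 on these arms, a smaller part of the runs than on the X. After a touching cluster the next one touched in 68.1% of cases, and after one that did not touch, in 60.5%, while the background arms gave 81.7 to 86.2% and 72.2 to 76.0%. Runs of 5 or more were not particular to the X, and numbered 5 on the X, 2 on 2L, 5 on 3L and 0 on 3R. The longest held 11, 5, 11 and 4 clusters on these arms. That of the X ran from 18286511 to 18407388, over 121 kb, with scores from 0.674 to 1.06, and 2 clusters of replicate 2 lay in the spaces between its clusters. The next ran from 18793118 to 19071497, with 8 clusters over 278 kb, and the third from 8818060 to 8962974, with 7 clusters over 145 kb. The second and the third run had median scores of 1.22 and 1.19, at percentiles 69.5 and 67.6 of the list, and replicate 2 had no cluster within either. The whole-series list, which is not independent of replicate 1, overlapped 10 of the 11 clusters of the first run, 7 of the 8 and 6 of the 7.

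Where X clusters did meet, those of replicate 2 were shorter. Over 777 pairs that were each other's best match, the median length was 3347 bp in replicate 1 and 2392 bp in replicate 2. The median of the length ratio was 0.769 (quartiles 0.552 and 0.984), against 0.963 to 0.982 on the 3 background arms, and 594 of the 777 pairs, or 76.4%, were shorter in replicate 2, against 53.9% on the background arms. In 388 pairs, or 49.9%, the cluster of replicate 2 lay inside that of replicate 1, and in 68 the reverse was the case. Both edges lay further in, by a median of 253 bp at the lower coordinate and 276 bp at the higher one, against 29 and 52 bp on the background arms. The score percentile was lower in replicate 2 in 65.8% of X pairs and in 46.7% of background pairs. The order of lengths was less alike between the replicates on the X (rho 0.50 over 777 pairs) than on the background arms (0.60 to 0.67).

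**Figure D5:**
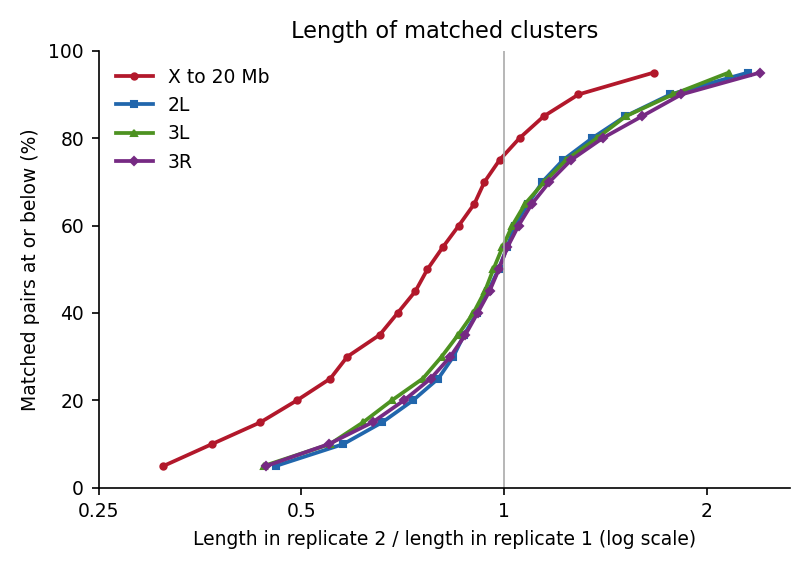
Cumulative share of matched pairs (%, drawn in steps of 5 from 5 to 95) by the length in replicate 2 over that in replicate 1 (log scale), for the X to 20 Mb and each background arm. The X curve lies to the left throughout, with a median ratio of 0.769, and those of the 3 background arms nearly coincide.

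In base pairs, clusters without a counterpart and the trimmed parts of shared clusters weighed about the same. Of the 4.44 Mb of X clusters in replicate 1, 0.987 Mb or 22.2% lay in clusters that did not touch, 1.09 Mb or 24.6% in touching clusters but outside replicate 2, and 2.36 Mb or 53.2% in clusters of both. On the background arms these parts were 9.40%, 14.6% and 76.0%. Of the X base pairs of replicate 2, 84.0% lay in clusters of replicate 1, against 77.0% on the background arms. Long X clusters were shared in part. Each of the 29 over 10 kb met a cluster of replicate 2, but 64.4% of their base pairs were covered there, against 85.9% on the background arms, and 23 of the 29 met 2 or more separate clusters, as did 97 of the 140 on the background arms.

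The highest-scoring X cluster of replicate 1 that touched ran from 5417112 to 5419958, with a score of 3.70, and it met the highest-scoring X cluster of replicate 2, from 5417400 to 5420005, with 3.77. The second, from 5421582 to 5423948 with 3.20, lay 1623 bp further on and met a cluster with 2.50 in replicate 2, the third there. The third ran from 5505737 to 5508373, with 3.02 in replicate 1 and 2.44 in replicate 2. All 3 were compact, between 2367 and 2847 bp in replicate 1. The other 5 of the top 8 began at 8409637, 13907661, 13338640, 10439355 and 6591362, with scores from 2.69 to 2.89. Of the 8, 6 met one of the 20 highest X scores of replicate 2. The cluster from 13338640 to 13341337 did not, with 2.78 in replicate 1 and 0.892 in replicate 2, where it ranked 637 on the X.

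Among X clusters of replicate 1 that did not touch, the highest score was 2.77, the seventh highest on the X, from 1851902 to 1853663. It was 1762 bp long, and the nearest cluster of replicate 2 lay 9035 bp away. In the whole-series list a cluster of 1077 bp with a score of 1.45 overlapped it. The other 7 had scores from 1.78 to 2.09, the next 2 being those from 19435126 to 19436986 and from 9095244 to 9097846. They ranked from 49 to 110 on the X. All 8 were under 3 kb, and their distance to replicate 2 ran from 2362 to 52193 bp. The whole-series list held 5 of the 8, and the other 3, at 19435126, 9397160 and 17663174, had no counterpart there either.

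The longest X cluster of replicate 1 spanned 26024 bp from 3564983 to 3591006. In replicate 2 it met 4 separate clusters that covered 86.2% of it. The second longest, from 13878867 to 13894355, met 3 clusters that covered 36.7%, and the fourth, from 12794098 to 12808880, met 3 that covered 71.4%. The third, from 15827628 to 15842741, met 2 clusters that covered 84.0%, one of them longer than itself at 16410 bp and with a score of 1.88, against 1.20 in replicate 1. The 4 longest that did not touch began at 3678451, 1242215, 7497495 and 12575311 and measured 6280 to 7630 bp. Each of them had a cluster in the whole-series list, shorter than in replicate 1, with scores of 0.500 to 0.876 on the scale of that list.

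The whole-series list, which is not independent of the replicate lists, held most X clusters of either kind. It overlapped 858 of the 860 touching clusters of replicate 1 and 338 of the 454 others, or 74.4%, close to the 75.5% on the background arms. Seen from that list, 57.6% (54.9 to 60.2%) of its 1341 X clusters touched both replicates, against 64.8% over all arms and scaffolds and 68.4% on the background arms. Another 29.2% (26.8 to 31.6%) touched replicate 1 only, against 17.1% over all and 12.2 to 14.2% on the 3 background arms. Those that touched replicate 2 only made up 3.28% on the X and 8.76% on the background arms. X clusters of replicate 1 only had a median length of 1865 bp and a score at percentile 32.2 of the list, and those of both had 3710 bp and percentile 67.2. On the background arms, clusters of replicate 1 only stood at percentile 16.5.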

How the data were processed

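Head chromatin was profiled in 2 ChIP libraries and 2 inputs, and each input was the background of the ChIP library with its number, per the labels. The submitters' processing notes name Bowtie 0.12.7, and coordinates are those of FlyBase release 5, per the file headers. The authors deposited 3 lists of enriched regions, each region with a positive score. The unit of the score, the caller and its thresholds are not given in the sources used here. Depth is unknown. The inputs have no values of their own here.

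X clusters with an end at or below 20 Mb were kept. Overlap was counted from 1 bp, gaps run to the nearest cluster of the same list, and matched pairs are mutual best overlaps. Clusters past the arm end were trimmed to it. No p-value is given, since both libraries belong to 1 group and clusters of a library are not replicates. Wilson intervals cover counting error only. As a check of the overlap count, the replicate 1 list was set against random subsets copied from itself. The kept shares of its 1314 X clusters were recovered with a difference of 0. Exact copies fix that outcome in advance, so it shows only that the count runs correctly. The members, measures and named clusters (the 8 highest scores and the 4 longest per class, the 6 highest of the whole-series list, the 3 longest runs, and the 3 highest and 3 lowest bins) were chosen with earlier results of these data known. The split by length and score together and the counts among the highest ranks were chosen after seeing the values. Sequences of the regions were not used here. Tables were made with pandas 2.3.3 and numpy 2.4.6 in Python 3.11.15, rank correlations with scipy 1.17.1, and figures with matplotlib 3.10.9.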

Additional observations from a re-analysis of the deposited data

How the results depend on the processing

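Of 52 alternatives to 10 results, 27 stayed within the spread set for their measure, 24 moved further and 1 changed direction. Spreads were the Wilson interval of a share, the SD over both directions of comparison for the classes, the SD over the background arms for ratios between replicates, and the SD over the replicates, 0.266, for X coverage over background, whose spread was thus wide. Some labels were fixed by this choice and carry no information. Class differences taken from replicate 2 helped set their own spread and could not fall within it. Leaving out 1 replicate could not move X coverage over background beyond its spread, though it could change its direction. The alternatives that match on score or gap, or set a minimum length, were chosen after seeing the data. An overlap of 50% of the cluster's length lowered the X touching share from 65.4% to 52.1% and its median over bins to 51.4%, brought the difference in gap to -334 bp and lowered the whole-series share found in both replicates to 50.1%. Letting gaps of 1 kb count gave 71.8% and -1659.5 bp. Clusters not under their list's median score gave a share of 47.3%, a length difference of 1883 bp, a gap difference of -1353 bp and a coverage ratio of 0.559. Those not under the median length gave 54.9%, 795 bp, a score difference of 0.562 percentile points and a ratio of 0.532. Counted per Mb the ratio was 0.760. The X touching share lay under that of the background arms in each of these settings. Taken from replicate 2 the values were 92.9%, 733 bp, 7.28 points and -1326 bp. Background matched on length and score stood at 76.5%, on score at 86.1% and on gap at 83.6%. Pairs with 50% reciprocal overlap had a length ratio of 0.846, against 0.976 on the background arms. Whole-series X clusters of at least 1301 bp were found in both replicates at 65.5%. X coverage over background was 0.675 without replicate 1 and 1.05 without replicate 2, the reversal. No paired analysis was possible because the inputs have no values here. Unknown depth limits what a missing cluster shows.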

Other observations

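The second highest X score of the whole-series list, 3.02, belonged to a cluster from 6328130 to 6329130 that neither replicate list held nearby. The nearest cluster of replicate 1 lay 56441 bp away and that of replicate 2 lay 62358 bp away. It was 1001 bp long, the shortest length in that list, while X clusters of the replicate lists measured at least 1301 bp. The other 5 of its 6 highest X scores, from 2.54 to 3.72, each met 1 cluster in both replicates. Of the 134 whole-series X clusters found in neither replicate, 81 were shorter than 1301 bp. Among the 1178 that were not, 4.50% were found in neither, against 3.76% on 2L, 3L and 3R together.

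Replicate 2 had 71 X clusters without a counterpart in replicate 1. They were short, with a median of 1594 bp, as were such clusters on the background arms, with 1602 bp. Of the 71, 30 lay within 1 kb of a replicate 1 cluster. That is 42.3%, against 23.6% of such clusters on the background arms. The whole-series list overlapped 50 of the 71, or 70.4%, and 53.3% of those on the background arms.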
